A study of Mus musculus with 12 samples.

Results

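The cytosolic ribosomal protein genes encode the proteins of the 60S and 40S ribosomal subunits. They were chosen by name: loci with an annotated Ensembl transcript whose symbol is Rpl or Rps followed by a number (with an a, l or x where there is one), plus Rplp0, Rplp1, Rplp2 and Rpsa. Where several loci shared a symbol, only that with the highest mean FPKM over the 12 libraries was kept. Otherwise the rule uses no measured value. It gave 74 genes of 24394 annotated symbols, 43 of the large subunit and 31 of the small subunit. In GENCODE 72 of them are protein coding, Rpl6l is a processed pseudogene and Rps4l a transcribed processed pseudogene. A further 7 loci join a ribosomal protein gene to a neighbour under a merged name (those of Rpl19, Rpl13a, Rpl17, Rpl21, Rpl24, Rpl7a and Rps21) and were left out of the 74.

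Ribosomal protein mRNAs are among the most abundant messages of any growing cell, and their products are needed in nearly equal amounts. Many of these mRNAs begin with a C followed by a run of pyrimidines, the 5′ terminal oligopyrimidine (TOP) motif, through which mTORC1 and the RNA-binding protein LARP1 set how strongly they are loaded on ribosomes. In a RiboTag experiment the assay itself runs through a member of the family: the tagged protein is Rpl22, a large subunit protein, and the RNA bound to tagged ribosomes is pulled down and sequenced.

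The 12 libraries came from C57BL/6 mice, from myenteric plexus dissected out of distal colon. All carried Sox10::CreERT2+/- and the Rpl22tm1.1Psam/J allele, so the tag appears only where Sox10-driven, tamoxifen-activated Cre has acted, which in the gut is mainly the enteric glia. All had eaten chow with 400 mg/kg tamoxifen citrate for 2 weeks and plain chow for 1 week. DNBS_GR159897 mice had an enema of 0.1 mL with 5 mg of DNBS, a hapten that causes colitis, in 50% ethanol, and 0.5 mg/kg of GR159897, which blocks the tachykinin receptor NK2R, in 0.1% DMSO. DNBS_Vehicle mice had the same enema and 0.1% DMSO alone. Saline_GR159897 mice had a saline enema and GR159897, and Saline_Vehicle mice had saline and 0.1% DMSO. Injections were daily over 3 days from 24 hours before the enema, and tissue was taken 48 hours after it. Each group held 3 libraries, with 2 females and 1 male in DNBS_GR159897 and 1 female and 2 males in each other group. No ethanol is listed for the saline enema, so DNBS and ethanol cannot be told apart. The labels number the libraries but do not say that each is a separate mouse, so p-values measure the spread between these libraries, which may be in part technical.

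Values are FPKM, fragments per kilobase of transcript scaled to the fragments mapped in the library, as deposited; the depth of each library is unknown. The library of DNBS_GR159897 replicate 1 stood apart from the rest. Its 10 measured glial markers summed to 12.8 FPKM, against 315 to 1065 in the other 5 DNBS libraries and 737 to 2262 in the 6 saline libraries. The Saline_Vehicle sums lack Gfap, which was blank there. The 10 epithelial markers of DNBS_GR159897 replicate 1 summed to 1538 FPKM, against at most 77.8 in any other library. Only 22.6% of its summed FPKM lay on annotated genes, against 53.8% to 84.0% in the other DNBS libraries and 75.4% to 95.1% in the saline libraries. The results that moved most with it are given with and without it. Smooth muscle markers (9 genes) summed to 305 to 7117 FPKM in the 6 DNBS libraries and 2146 to 4768 FPKM in the 6 saline libraries. Neuron markers (10 genes) summed to 40.2 to 361 FPKM in DNBS libraries and 217 to 277 FPKM in saline libraries, and fibroblast markers (6 genes) to 34.2 to 94.5 FPKM in DNBS libraries and 45.2 to 85.1 FPKM in saline libraries, so markers of cells other than glia were measured in every group.

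The letters at the annotated start show which of these genes open with a TOP-like run. Below are the 30 bases around RefSeq's annotated start in GRCm38.p6, 10 before it and 20 from it, for members on which the results turn; capitals mark a run of at least 5 pyrimidines that opens with a C at the start. Rpl38, Rps18, Rplp2 and Rpl35a passed the test for DNBS and have such a run. Rps12, Rps28, Rpsa and Rpl22 passed it and have none; of the 2 starts RefSeq gives for Rpl22, neither of which has a run, the downstream one is shown, and of the 3 given for Rpl35a the only one with a run. Rpl15 has the longest run of the 54 members in the table and was among the members with the lowest fold change.
Rpl38 (chr11:114668570-114668599, + strand): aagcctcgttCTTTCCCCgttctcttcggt
Rps18 (chr17:33955646-33955675, - strand): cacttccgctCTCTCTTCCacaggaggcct
Rplp2 (chr7:141447641-141447670, + strand): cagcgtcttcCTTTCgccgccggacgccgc
Rpl35a (chr16:33056472-33056501, + strand): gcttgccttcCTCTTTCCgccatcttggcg
Rps12 (chr10:23787190-23787219, - strand): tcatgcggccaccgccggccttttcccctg
Rps28 (chr17:33824543-33824572, - strand): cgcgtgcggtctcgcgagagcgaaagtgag
Rpsa (chr9:120127756-120127785, + strand): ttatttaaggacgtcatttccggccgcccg
Rpl22 (chr4:152325716-152325745, + strand): cctgggaaaagcaatagctggccgatcgtt
Rpl15 (chr14:18270967-18270996, - strand): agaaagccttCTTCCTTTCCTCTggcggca

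RefSeq's promoter table held 54 of the 74 members. A C at the annotated start within a run of at least 5 pyrimidines was found in 12 of the 54 (22.2%), against 3.01% of all 27025 genes of the table and 2.88% of 8570 other genes tested, read on the transcribed strand. A looser reading, a C followed by at least 6 pyrimidines that begins within 20 bases of the start, held for 30 of 54 (55.6%) against 24.0% of all genes and 24.7% of the other genes tested. Annotated starts can be some bases off, so a missing run says only that these letters are not at that base. In the 300 bases from 250 before the start to 50 after it, CCGGAAG, the core of ETS-family sites, stood on either strand in 22 of 54 members (40.7%) against 9.93% of all genes and 19.5% of the other genes tested. For AAGATGGC, the core of YY1 sites, the count was 4 of 54 (7.41%) against 3.19% of all genes and 5.20% of the other genes tested. TATAAA was found in 6 of 54 (11.1%), which lay between the 15.7% of all genes and the 8.63% of the other genes tested. CCGGAAG and AAGATGGC can share the letters AAG, and a match describes the sequence only.

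Levels per length spread over a wide range among the members. Rpl41, which encodes the smallest ribosomal protein, had the highest mean over the 12 libraries at 651 FPKM, and Rpl38 at 460.4 FPKM, Rpl8 at 380.2 FPKM and Rps14 at 359 FPKM were also among the 5 highest. At the low end were Rpl3l at 0.047 FPKM, Rpl36al at 7.42 FPKM, Rps4l at 8.12 FPKM, the tagged gene Rpl22 at 11.2 FPKM and Rpl6l at 14.8 FPKM. Short transcripts and copies with near-identical sequence make such levels uncertain: the same annotation holds 138 loci named as pseudogenes of these genes, and the counting may have split reads between copy and parent. The 74 genes lie on 19 chromosomes, 25 of them host 44 small nucleolar RNAs within their bounds, and 18 overlap an exon of a gene on the opposite strand, which the values, with no strand, cannot tell apart.

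Paralogs and their partners differed in level. Rpl3l, a paralog of Rpl3 used in heart and skeletal muscle, was listed at 0 in 9 of 12 libraries and reached at most 0.25 FPKM, so it was not tested, while Rpl3 averaged 35.3 FPKM. Rps27l, a paralog of Rps27, averaged 166 ± 89.2 FPKM against 67.6 ± 32.7 FPKM for Rps27 (SD, n = 12) and was the higher of the pair in 11 libraries. Rpl36al averaged 7.42 FPKM against 42.9 FPKM for Rpl36a, and Rps4l 8.12 FPKM against 134 FPKM for Rps4x. Rpl6l was listed at 0 in 8 libraries and stood between 35.0 and 53.8 FPKM in the other 4. Rpl22l1, the paralog of Rpl22, lies outside the name rule; at 36.9 ± 13.4 FPKM it stood above Rpl22 (11.2 ± 5.39 FPKM; SD, n = 12) in all 12 libraries.

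The summed level of the 74 genes had a mean in DNBS libraries about 2-fold that in saline libraries, given here as a description with no test. It was 6672, 9265 and 15643 FPKM in DNBS_GR159897 and 11486, 11548 and 15138 FPKM in DNBS_Vehicle, against 3798, 7421 and 6205 FPKM in Saline_GR159897 libraries and 5921, 6211 and 5299 FPKM in Saline_Vehicle libraries. All DNBS libraries except DNBS_GR159897 replicate 1 lay above every saline library, and that one lay within the saline range. As a share of the FPKM on annotated genes, the members took 6.05%, 4.67% and 6.11% in DNBS_GR159897 and 4.40%, 5.34% and 5.5% in DNBS_Vehicle, against 1.47%, 3.20% and 2.54% in Saline_GR159897 and 2.5%, 2.57% and 2.05% in Saline_Vehicle, and here the 6 DNBS and the 6 saline libraries did not overlap. As a share of all loci, named or not, the ratio of the DNBS mean to the saline mean was 1.55, against 2.24 as a share of annotated genes and 2.00 for the FPKM sums. By that share of all loci, DNBS_GR159897 replicate 1, at 1.37%, lay below every saline library (1.40% to 2.41%). Between the subunits the ranges overlapped: the large subunit held 56.3% to 59.5% of the members' FPKM in DNBS libraries and 55.5% to 58.2% in saline libraries. In RNA pulled down from whole dissected tissue, a change in the mix of cells and a change in RNA per cell cannot be told apart.

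**Figure D1:**
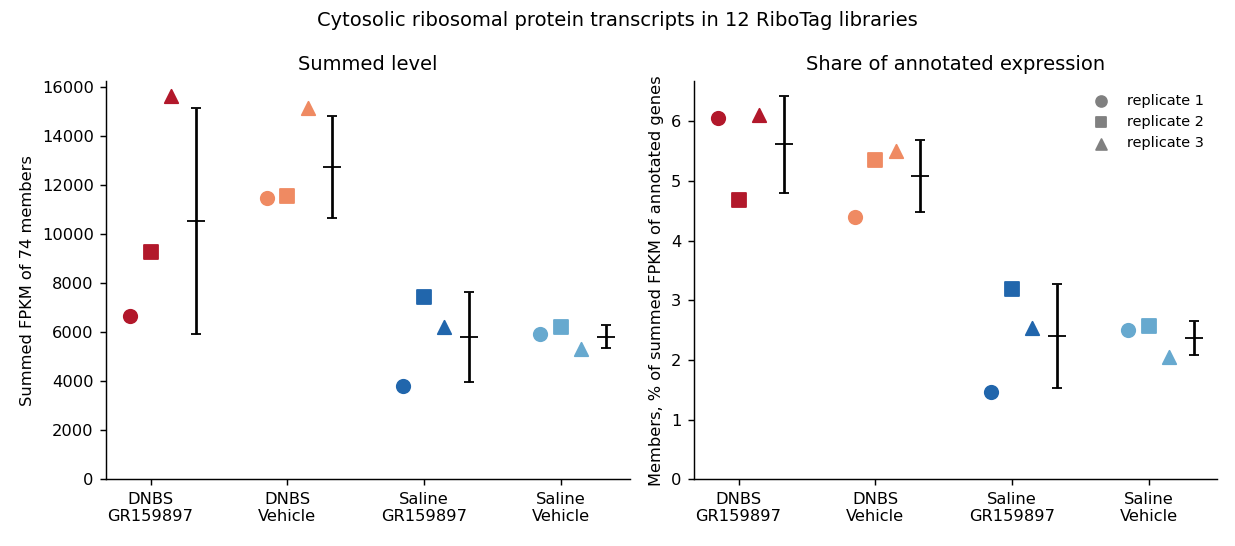
Summed FPKM of the 74 genes (left) and their share of the FPKM on annotated genes (right) in each library, by group; symbols mark replicates and the bars the mean ± SD (n = 3). DNBS_GR159897 replicate 1 lies at 6672 FPKM, inside the saline range of 3798 to 7421 FPKM, but at 6.05% as a share, above all saline libraries.

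Fold changes were tested gene by gene with limma on log2(FPKM + 1) over all 12 libraries, with Benjamini-Hochberg adjustment over all genes tested and a threshold of 0.05; 73 members passed the filter of at least 1 FPKM in at least 3 libraries. Averaged over both drug arms, 70 of the 73 had a positive log2 fold change for DNBS, against 38.8% of all genes tested. The test called 16 members, all higher, where 9.6% of 12777 genes were called in either direction, 2.76% higher and 6.83% lower. An unadjusted p under 0.05 was found in 36 members, all higher, where 28.3% of all genes had one in either direction and 8.22% were higher. The median over the members was 0.90 on the log2 scale, against -0.18 over all genes tested. It was 0.76 for the 42 large subunit genes and 0.97 for the 31 small subunit genes, and 8 of each were called.

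Among the small subunit genes, Rps12 had the highest fold change. Rps12 measured 81.3, 36.7 and 40.6 FPKM in DNBS_GR159897 and 22.7, 38.0 and 35.8 FPKM in DNBS_Vehicle, against 2.67, 16.7 and 9.91 FPKM in Saline_GR159897 libraries and 9.69, 11.5 and 6.74 FPKM in Saline_Vehicle libraries. All 6 DNBS libraries lay above all 6 saline libraries, and the log2 fold change was 2.09 ± 0.41 (SE; limma adjusted p = 0.0126). Rps28, one of the shortest ribosomal proteins, measured 125, 128 and 134 FPKM in DNBS_GR159897 and 122, 150.2 and 146 FPKM in DNBS_Vehicle, against 20.5, 61.9 and 52.3 FPKM in Saline_GR159897 libraries and 37.6, 35.4 and 32.0 FPKM in Saline_Vehicle libraries. It too did not overlap, with a log2 fold change of 1.80 ± 0.34 (SE; limma adjusted p = 0.0113).

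Rpsa, which also serves as the precursor of a cell surface laminin receptor, measured 243, 159 and 194 FPKM in DNBS_GR159897 and 156, 244 and 168 FPKM in DNBS_Vehicle, against 49.7, 81.7 and 59.4 FPKM in Saline_GR159897 libraries and 46.6, 64.1 and 49.4 FPKM in Saline_Vehicle libraries. The lowest DNBS library was thus above the highest saline library, and the log2 fold change was 1.71 ± 0.32 (SE; limma adjusted p = 0.0113). Rps18 of the subunit's head had a log2 fold change of 1.57 and an adjusted p of 0.0213 by limma. Its DNBS libraries spread from 117 to 311 FPKM and its saline libraries from 45.4 to 80.5 FPKM. Rps24, one of the genes mutated in Diamond-Blackfan anaemia in humans, had its highest value, 407 FPKM, in DNBS_GR159897 replicate 1; the other 5 DNBS libraries held 187 to 216 FPKM and the 6 saline libraries 35.4 to 122 FPKM (log2 fold change 1.53, limma adjusted p = 0.0310).

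Rps16 and Rps27a, the second made as a fusion with ubiquitin, were called as well. Rps27a spanned 57.6 to 125 FPKM in DNBS libraries and 19.8 to 52.3 FPKM in saline libraries (1.29 on the log2 scale, limma adjusted p = 0.0334). Rps16 overlapped through 1 library: 65.6 FPKM in DNBS_GR159897 replicate 1, against 46.3 to 82.1 FPKM in the saline libraries, while the other DNBS libraries held 163 to 286 FPKM (1.46 on the log2 scale, limma adjusted p = 0.0390).

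On the large subunit, Rpl38 led among the genes called. Rpl38, which in mouse embryos is needed for the translation of a subset of Hox mRNAs, measured 597, 604 and 999.6 FPKM in DNBS_GR159897 and 705, 734 and 669 FPKM in DNBS_Vehicle, against 109, 255 and 263 FPKM in Saline_GR159897 libraries and 186, 230.4 and 174 FPKM in Saline_Vehicle libraries. No DNBS library reached down to the saline range, and the log2 fold change was 1.85 ± 0.39 (SE; limma adjusted p = 0.0158). Rpl27a spanned 23.3 to 45.4 FPKM in DNBS libraries and 4.41 to 20.7 FPKM in saline libraries (1.69 on the log2 scale, limma adjusted p = 0.0159). Rpl12, which lies at the base of the stalk that recruits elongation factors, spanned 28.0 to 50.3 FPKM in DNBS libraries and 6.64 to 16.8 FPKM in saline libraries (1.56 on the log2 scale, limma adjusted p = 0.0149).

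Rplp2, an acidic protein of that stalk, spanned 149 to 229 FPKM in DNBS libraries and 40.5 to 111 FPKM in saline libraries (log2 fold change 1.39, limma adjusted p = 0.0314). Its partners on the stalk did not pass: Rplp1 had a log2 fold change of 1.14 with an adjusted p of 0.0769 by limma, and Rplp0 one of 0.32 with an adjusted p of 0.636 by limma. Rpl23 (1.36 on the log2 scale), Rpl35a (1.33) and Rpl36a (1.16) passed with limma adjusted p-values of 0.0399, 0.0302 and 0.0386, and none of them overlapped between the 6 DNBS and the 6 saline libraries. Rpl41 and Rpl39 had log2 fold changes of 1.52 each and did not pass (limma adjusted p = 0.0759 and 0.0611), with DNBS libraries from 382 to 1356 FPKM for Rpl41 and from 24.9 to 183 FPKM for Rpl39, and saline libraries from 133 to 679 FPKM and from 22.2 to 58.9 FPKM.

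Rpl22 itself, whose tagged copy carries the pull-down, was among the genes called. It measured 14.1, 16.7 and 21.8 FPKM in DNBS_GR159897 and 14.3, 13.1 and 13.5 FPKM in DNBS_Vehicle, against 1.85, 7.21 and 8.38 FPKM in Saline_GR159897 libraries and 9.61, 7.41 and 6.42 FPKM in Saline_Vehicle libraries. All DNBS libraries were above all saline libraries, by 1.17 ± 0.32 on the log2 scale (SE; limma adjusted p = 0.0417). The call held in 3 of 12 fits that left out 1 library each, with adjusted p-values of up to 0.101 by limma in the others. These values do not separate the tagged from the untagged allele, and they give no measure of how much tagged protein there was. Per drug arm the log2 fold change of Rpl22 was 1.60 with GR159897 (limma adjusted p = 0.083) and 0.75 with vehicle (limma adjusted p = 0.54), and their difference was 0.85 ± 0.65 (SE; limma adjusted p = 0.957). Without Saline_GR159897 replicate 1, the library at 1.85 FPKM, the value with GR159897 was 1.06 and the difference 0.31.

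**Figure D2:**
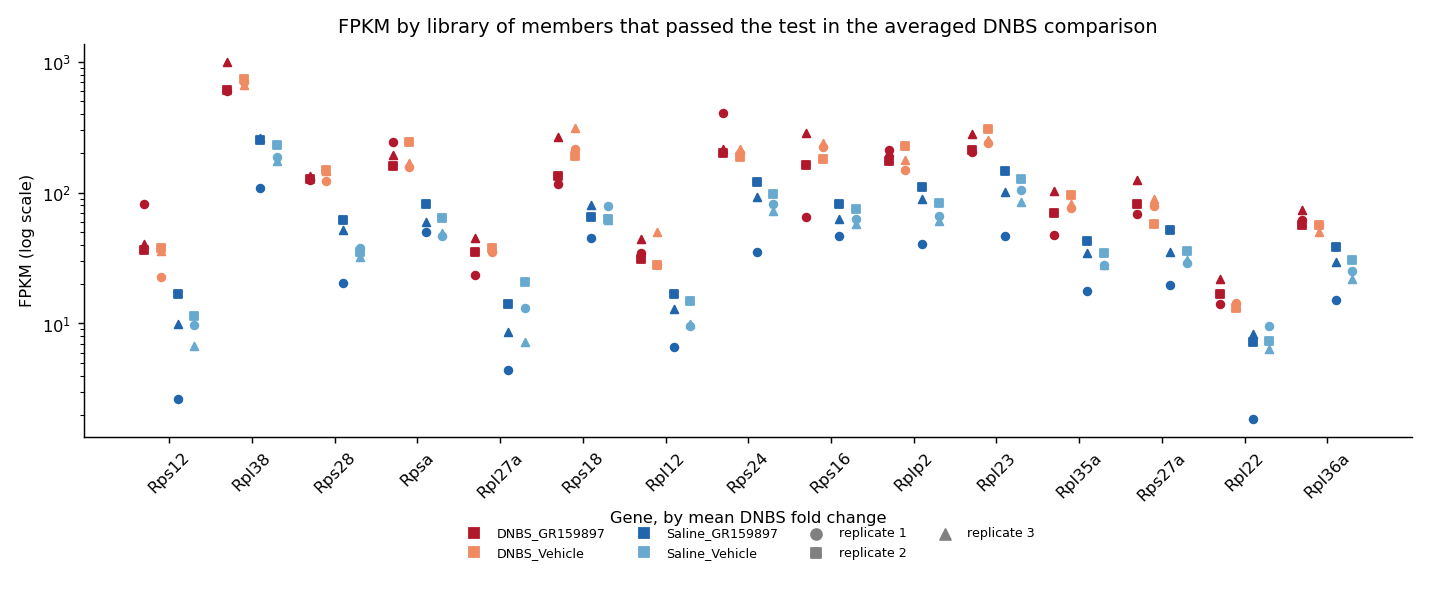
FPKM of 15 called members in each of the 12 libraries on a log axis, ordered by log2 fold change; colours mark groups and symbols replicates. In 14 of these 15 every DNBS library lies above every saline library; in Rps16 the library DNBS_GR159897 replicate 1, at 65.6 FPKM, does not.

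Some members had fold changes near or below 0. Rpl3, Rpl4, Rpl23a, Rpl15 and Rps4l had the lowest log2 fold changes, and none passed the test. Rpl4, which lines the exit tunnel, held 100.1 to 197 FPKM in DNBS libraries and 120.2 to 158 FPKM in saline libraries (0.02 ± 0.32 on the log2 scale, SE). Rpl3, which reaches the peptidyl transferase centre, held 21.2 to 50.6 FPKM in DNBS libraries and 30.3 to 38.3 FPKM in saline libraries (-0.04 ± 0.31 on the log2 scale, SE); its sign turned to 0.17 when libraries were scaled to their annotated total and to 0.26 when scaled to the upper quartile. The lowest protein-coding member was Rpl15 at -0.59 ± 0.72 on the log2 scale (SE), and its value rested on 1 library, with 0.25 FPKM in DNBS_GR159897 replicate 1, 15.2 to 48.7 FPKM in the other DNBS libraries and 17.3 to 32.4 FPKM in the saline libraries. Without that library it stood at 0.21.

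Of the 73 members tested, 18 had all 6 DNBS libraries above all 6 saline libraries, against 1.74% of all genes tested, and none had all 6 below, against 4.29% of all genes. Beside 15 of the 16 genes called, these were Rpl5, Rpl8 and Rps2. Without DNBS_GR159897 replicate 1 the count was 41, against 3.66% of all genes, and none lay below, against 4.74%. Rpl8 stood at 386 to 609 FPKM in DNBS libraries and 221 to 305 FPKM in saline libraries (0.99 on the log2 scale, limma adjusted p = 0.0868). Rpl5, which with Rpl11 carries the 5S ribosomal RNA and binds Mdm2, stood at 35.1 to 51.0 FPKM in DNBS libraries and 20.8 to 34.3 FPKM in saline libraries (0.67 on the log2 scale, limma adjusted p = 0.138).

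**Figure D3:**
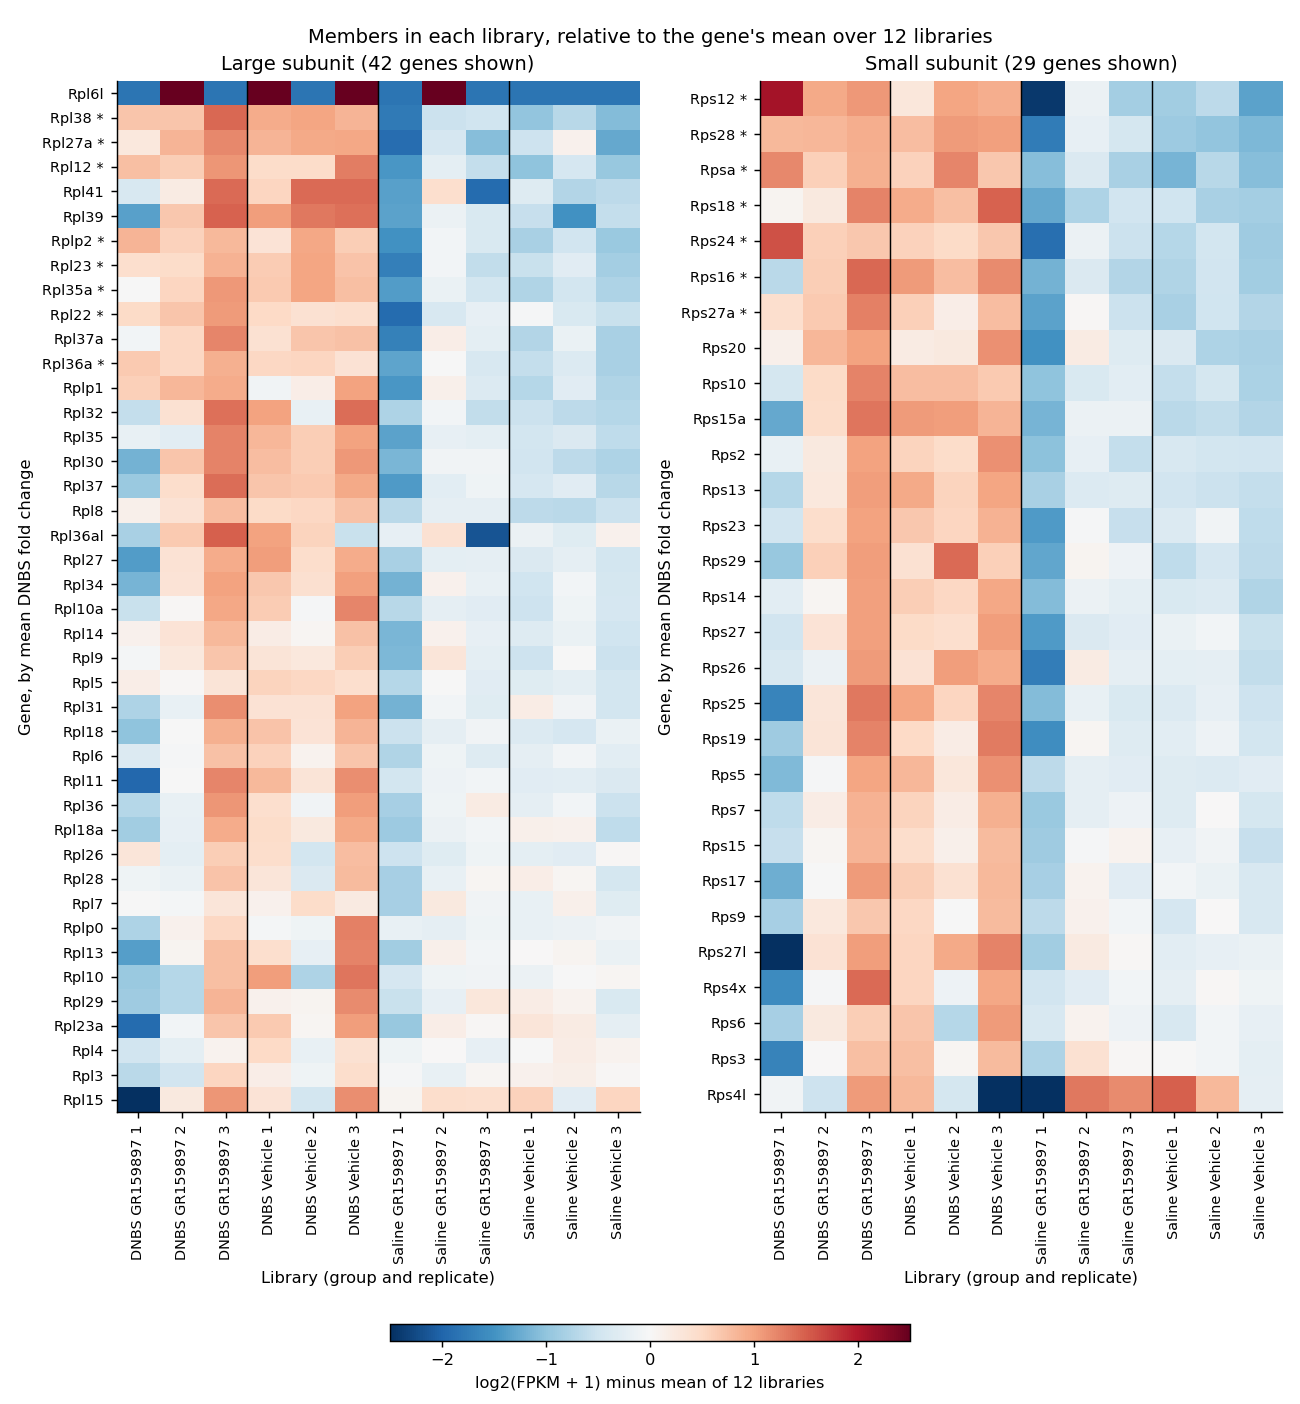
Log2(FPKM + 1) of 42 large and 29 small subunit genes in each library minus the gene's mean over the 12 libraries, with genes ordered by the averaged DNBS fold change and an asterisk on those called; colours stop at ±2.5. DNBS columns are mostly above the mean and saline columns mostly below it, with Saline_GR159897 replicate 1 the lowest of the saline columns in most genes and DNBS_GR159897 replicate 1 mixed.

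How many members passed depended on single libraries and on scaling. Leaving out a library gave 7, 8 and 4 called members without Saline_Vehicle replicates 1, 2 and 3, and 8, 9 and 8 without DNBS_Vehicle replicates 1, 2 and 3. The count was 6 and 8 without Saline_GR159897 replicates 1 and 3, and 39 without DNBS_GR159897 replicate 1, where 3.9% of genes were called higher. Calls over all genes fell as well in the fits with fewer members called: they numbered 474, 686 and 402 without the Saline_Vehicle replicates, 687, 841 and 940 without the DNBS_Vehicle replicates and 439 and 588 without Saline_GR159897 replicates 1 and 3, against 1226 with all libraries and 1216 without DNBS_GR159897 replicate 1. Rpl12, Rps12, Rps28 and Rpsa passed in all 12 of these fits, Rpl27a and Rpl38 in 11 and Rps18 in 10. The other calls were lost more often: Rps27a passed in 5 of the 12 fits, Rpl35a, Rplp2 and Rps24 in 4, and Rpl22, Rpl23, Rpl36a and Rps16 in 3. Scaling each library to its annotated total gave 34 called members and scaling to the upper quartile 33; the share of all called genes that were higher then moved to 39.8% and 52.8%, against 28.8% without scaling. These scalings shifted the median of all genes by 0.15 and 0.22 on the log2 scale, and the members' median stood 1.15 and 1.17 above that of all genes, against 1.09 without scaling.

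Neutrophil and macrophage markers moved with DNBS as well. Of 5 neutrophil markers tested, 4 were called higher in the averaged comparison, and of 9 macrophage markers 3 were, against 2.76% of all genes tested. Only 5 of the 8 neutrophil markers passed the filter, mainly through the DNBS libraries, where their levels were higher. The neutrophil calls are therefore no independent support. The 8 neutrophil markers summed to 255.8, 51.4 and 41.2 FPKM in DNBS_GR159897 and 469, 578 and 11.9 FPKM in DNBS_Vehicle, against 0.37 to 12.2 FPKM in the saline libraries, in all of which Cxcr2 was listed at 0. Macrophage sums (11 markers) ran from 38.0 to 263 FPKM in DNBS libraries and from 43.6 to 116 FPKM in saline libraries. Of 8 glial markers tested, 3 were called lower in the averaged comparison, against 6.83% of all genes tested. This comparison includes DNBS_GR159897 replicate 1. In the vehicle arm none of the 8 was called, against 0.0861% of all genes called lower, and their median log2 fold change was -0.61. With GR159897, 1 of 9 was called lower, against 0.994% of all genes, with a median of -2.4. In the order of the neutrophil sums above, the member sums were 6672, 9265 and 15643 FPKM in DNBS_GR159897. They were 11486, 11548 and 15138 FPKM in DNBS_Vehicle. The part of these cells and of the annotated share in the result was not tested.

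In the vehicle arm alone, the question of what DNBS does without the drug, 72 of 73 members had a positive log2 fold change, against 43.1% of all genes, with a median of 1.05 against -0.11 over all genes. The members with the highest were Rpl6l at 3.85, Rpl39 at 2.15, Rps28 at 1.96, Rpl38 at 1.84 and Rpsa at 1.79. The limma test called 0 of the 73 at an adjusted p under 0.05, where 0.321% of 12777 genes were called, 0.235% higher and 0.0861% lower. An unadjusted p under 0.05 was found in 26 members, all higher, where 12.6% of all genes had one in either direction and 4.87% were higher, and the lowest adjusted p was 0.126 for Rps28. In 55 members every DNBS_Vehicle library lay above every Saline_Vehicle library, against 9.53% of all genes tested, and in none did every library lie below, against 14.9%. Without DNBS_GR159897 replicate 1, which belongs to neither group but enters the filter, the shared estimate of spread and the adjustment, 6 members were called, where 0.953% of genes were called higher.

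The lowest log2 fold changes of that arm were -1.48 for Rps4l, 0.06 for Rpl3, 0.07 for Rpl15, 0.15 for Rpl4 and 0.32 for Rpl28. Rps4l was listed at 0 in 1 DNBS_Vehicle library and 1 Saline_GR159897 library and, like Rpl6l, is a pseudogene whose reads may belong to its parent. Rpl39 measured 136, 165 and 171 FPKM in DNBS_Vehicle, against 43.5, 22.2 and 42.8 FPKM in Saline_Vehicle, with no overlap.

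In DNBS_GR159897 against Saline_GR159897, 64 of 73 members had a positive log2 fold change, against 37.6% of all genes, with a median of 0.68 against -0.27. The limma test called 0 members, where 1.38% of 12778 genes were called, 0.383% higher and 0.994% lower. An unadjusted p under 0.05 was found in 18 members, all higher, where 22.7% of all genes had one in either direction and 5.77% were higher, and Rps12, at 2.5 on the log2 scale, came closest with an adjusted p of 0.0529. Next were Rpl27a at 1.90, Rpl38 at 1.87, Rps24 at 1.81 and Rps28 at 1.64. In 19 members every DNBS_GR159897 library lay above every Saline_GR159897 library, against 6.67% of all genes, and in none did every library lie below, against 17.6%. The median was 1.07 without DNBS_GR159897 replicate 1, with all 73 members positive, none called and 0.232% of genes called higher. It was 0.34 without Saline_GR159897 replicate 1 and 0.31 without DNBS_GR159897 replicate 3. A single member was called in each case without Saline_GR159897 replicate 2 and without DNBS_GR159897 replicate 3, where 79 and 601 of all genes were called.

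The lowest log2 fold changes with the drug were -1.25 for Rpl15, -0.28 for Rps27l, -0.18 for Rps3 and for Rpl23a, and -0.15 for Rpl3. Of these, all but Rpl15 turned positive when libraries were scaled to the annotated total or to the upper quartile. Rps27l, a target of p53, measured 18.1, 176 and 285 FPKM in DNBS_GR159897, against 74.5, 161 and 140 FPKM in Saline_GR159897. Without replicate 1 of DNBS_GR159897 it stood at 0.91, Rpl15 at 0.36, Rpl23a at 0.57, Rps3 at 0.50 and Rpl3 at 0.088. That library was the one whose rank order of members was the least like that of other libraries (median Spearman rho 0.729 over its 11 pairs, against 0.881 to 0.942 for each other library).

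The 2 arms share no library, so the members' values in one can be read beside those in the other. Of 73 members, 63 had a positive log2 fold change for DNBS in both arms (86.3%, against 25.2% of all genes tested), 9 with vehicle only, Rps4l with GR159897 only, and none a negative one in both. Across the 73 genes, which are not independent replicates, Pearson's r between the arms was 0.474 and Spearman's rho 0.675, against 0.559 and 0.549 across all 12777 genes. Without DNBS_GR159897 replicate 1, 72 members were positive in both arms, with r of 0.624 and rho of 0.778.

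**Figure D4:**
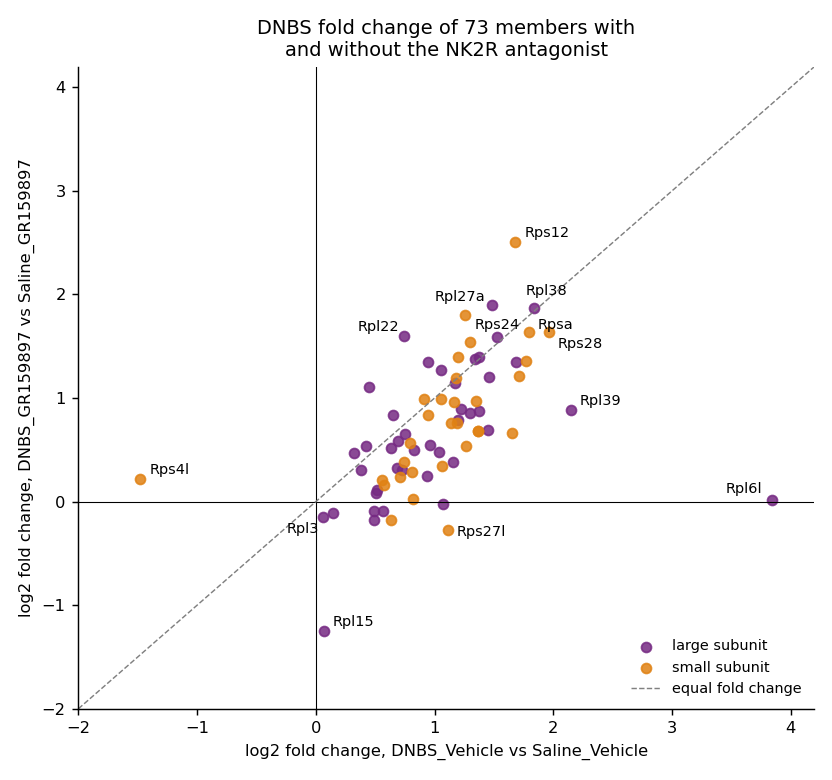
Log2 fold change of each tested member with DNBS in vehicle-treated mice (horizontal) and in GR159897-treated mice (vertical), coloured by subunit; the dashed line marks equal values. Of the 73 genes, 63 lie in the upper right quadrant, Rps12 is highest on the vertical axis at 2.5 and Rpl15 lowest at -1.25.

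For the antagonist without colitis, Saline_GR159897 against Saline_Vehicle, the median log2 fold change was -0.06, against -0.03 over all genes, with 28 members above 0, against 46.6% of all genes, and 45 below. Single libraries turned it: without Saline_GR159897 replicate 1 it was 0.22 with 61 members above 0, without replicates 2 and 3 of that group -0.25 with 6 above and -0.15 with 14 above, and without Saline_Vehicle replicates 2 and 3 -0.03 with 34 above and -0.13 with 18 above. No member was called by limma, with 0.0% of 12777 genes called, and none had an unadjusted p under 0.05, against 1.7% of all genes. In no member did the libraries of one group all lie above the other, against 3.04% of all genes above and 4.18% below. The highest values were Rpl6l at 1.72, Rpl39 at 0.28, Rpl8 at 0.26, Rpsa at 0.23 and Rps28 at 0.21. The lowest were Rps4l at -0.77, Rpl27a at -0.56, Rpl36al at -0.55, Rpl22 at -0.53 and Rps27 at -0.43. Rpl22 measured 1.85, 7.21 and 8.38 FPKM in Saline_GR159897, against 9.61, 7.41 and 6.42 FPKM in Saline_Vehicle, so that the groups overlapped and replicate 1 of Saline_GR159897 alone was low.

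In inflamed tissue, DNBS_GR159897 against DNBS_Vehicle, 58 of 73 members lay below 0 with a median of -0.40, against -0.21 over all genes, and 15 above it, against 37.2% of all genes. No member was called by limma, with 0.0% of 12778 genes called, and none had an unadjusted p under 0.05, against 8.13% of all genes. Every DNBS_GR159897 library lay above every DNBS_Vehicle library in 1 member, against 3.19% of all genes, and below in 1 member, Rpl5, against 6.89%. The lowest values were Rpl6l at -2.11, Rps27l at -1.38, Rpl15 at -1.28, and Rpl23a and Rpl11 at -1.01 each. The highest were Rps4l at 0.93, Rps12 at 0.64, Rplp1 at 0.42, Rps24 at 0.37 and Rpl22 at 0.32. The median depended on single libraries and on scaling. It was -0.02 without DNBS_GR159897 replicate 1, -0.74 without DNBS_GR159897 replicate 3, and 0.09 when libraries were scaled to their annotated total. In the fit without DNBS_GR159897 replicate 3, 17 members had an unadjusted p under 0.05, as did 2274 of all 12585 genes, and no member was called. Without replicate 1 of DNBS_GR159897, Rps27l stood at -0.20, Rpl11 at -0.15, Rpl23a at -0.27, Rpl15 at 0.33 and Rpl6l at -1.24.

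The interaction asks whether the DNBS change differs with the drug. Its median over the members was -0.35, against -0.18 over all genes, with 54 members below 0 and 19 above, against 40.4% of all genes above. The limma test called none, with 0.0% of 12777 genes called, no member had an unadjusted p under 0.05, against 3.58% of all genes, and the lowest adjusted p was 0.957. The lowest values were Rpl6l at -3.83, Rps27l at -1.39, Rpl15 at -1.31, Rpl39 at -1.26 and Rpl11 at -1.09, and the highest Rps4l at 1.70, Rpl22 at 0.85, Rps12 at 0.82, Rpl36al at 0.66 and Rps24 at 0.55. This median was 0.05 without DNBS_GR159897 replicate 1, -0.72 without DNBS_GR159897 replicate 3, -0.58, -0.22 and -0.20 without Saline_GR159897 replicates 1, 2 and 3 and -0.17 without DNBS_Vehicle replicate 3. Scaling libraries by their annotated sum gave 0.14. Without replicate 1 of DNBS_GR159897, Rps27l stood at -0.20, Rpl11 at -0.24, Rpl15 at 0.30, Rpl39 at -0.45 and Rpl6l at -2.96. Without Saline_GR159897 replicate 1, Rps4l stood at 0.37, Rpl22 at 0.31, Rps12 at 0.18 and Rps24 at 0.029. Rpl36al stood at -0.085 without Saline_GR159897 replicate 3. The groups of 3 do not show that the drug leaves these genes alone.

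Lists of genes around the ribosome were read in the averaged comparison beside the members. Of the other ribosomal proteins under different names, Rack1, a scaffold of the small subunit, was called higher in the averaged comparison: it measured 61.6, 53.2 and 83.8 FPKM in DNBS_GR159897 and 76.4, 69.9 and 75.0 FPKM in DNBS_Vehicle, against 22.0, 35.2 and 31.3 FPKM in Saline_GR159897 libraries and 26.2, 28.8 and 31.7 FPKM in Saline_Vehicle libraries (1.23 ± 0.29 on the log2 scale, SE; limma adjusted p = 0.0247). Fau, whose product releases the small subunit protein eS30, had a log2 fold change of 0.95 (limma adjusted p = 0.119), Rpl22l1 0.69 (limma adjusted p = 0.222) and Rpl7l1, a homolog that acts in ribosome assembly, -0.50 (limma adjusted p = 0.402). Of the 7 merged loci, those of Rpl17 (1.53 on the log2 scale) and Rps21 (1.54) were called higher by limma, with adjusted p-values of 0.0158 and 0.0282. These calls make 28.6% of the merged loci, against 2.76% of all genes called higher. All 7 were above 0, against 38.8% of all genes.

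Translation factors known to carry TOP motifs, such as elongation factors, had a median log2 fold change of 0.68 in the averaged comparison, against -0.18 over all genes. Of the 13 tested, 10 lay above 0, against 38.8% of all genes. The test called 1, which was higher (7.69%, against 2.76% of all genes called higher and 9.6% called in either direction). The gene called was Eif4b, an activator of the eIF4A helicase, with 19.1 to 41.3 FPKM in DNBS libraries and 3.13 to 25.4 FPKM in saline libraries (1.90 on the log2 scale, limma adjusted p = 0.0213). Of 24 ribosome assembly genes tested, 21 lay above 0, against 38.8% of all genes, with a median of 0.30 against -0.18 over all genes. Myc, Nop58, Taf1d and Tsr1 were called higher (16.7%, against 2.76% of all genes called higher). Tsr1, which acts in late maturation of the small subunit, stood at 6.76 to 27.0 FPKM in DNBS libraries and 2.39 to 4.84 FPKM in saline libraries (1.48 on the log2 scale, limma adjusted p = 0.0149). Taf1d, a subunit of the RNA polymerase I factor SL1, stood at 2.54 to 32.2 FPKM in DNBS libraries and 0.46 to 1.97 FPKM in saline libraries (1.65, limma adjusted p = 0.0304). The highest values of Tsr1 and Taf1d were both in DNBS_GR159897 replicate 1, and the other DNBS libraries reached 12.2 FPKM for Tsr1 and 5.61 FPKM for Taf1d. Nop58, of the box C/D snoRNPs, had a log2 fold change of 0.78 (limma adjusted p = 0.0441), and Myc, a transcription factor that drives ribosome production, stood at 1.06 to 5.79 FPKM in DNBS libraries and 0.25 to 1.45 FPKM in saline libraries (1.22, limma adjusted p = 0.0398).

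The 17 genes of the mTORC1 and LARP1 pathway, the regulators of TOP mRNAs, had a median of 0.03, against -0.18 over all genes. Of them, 9 lay above 0, against 38.8% of all genes, and none was called, against 9.6%. The 64 mitochondrial ribosomal protein genes, which serve the separate ribosome of that organelle, had 52 below 0 and 12 above, against 38.8% of all genes above. Their median was -0.37, against -0.18 over all genes. None was called, against 9.6% of all genes, and 9 had an unadjusted p under 0.05, against 28.3% of all genes.

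**Figure D5:**
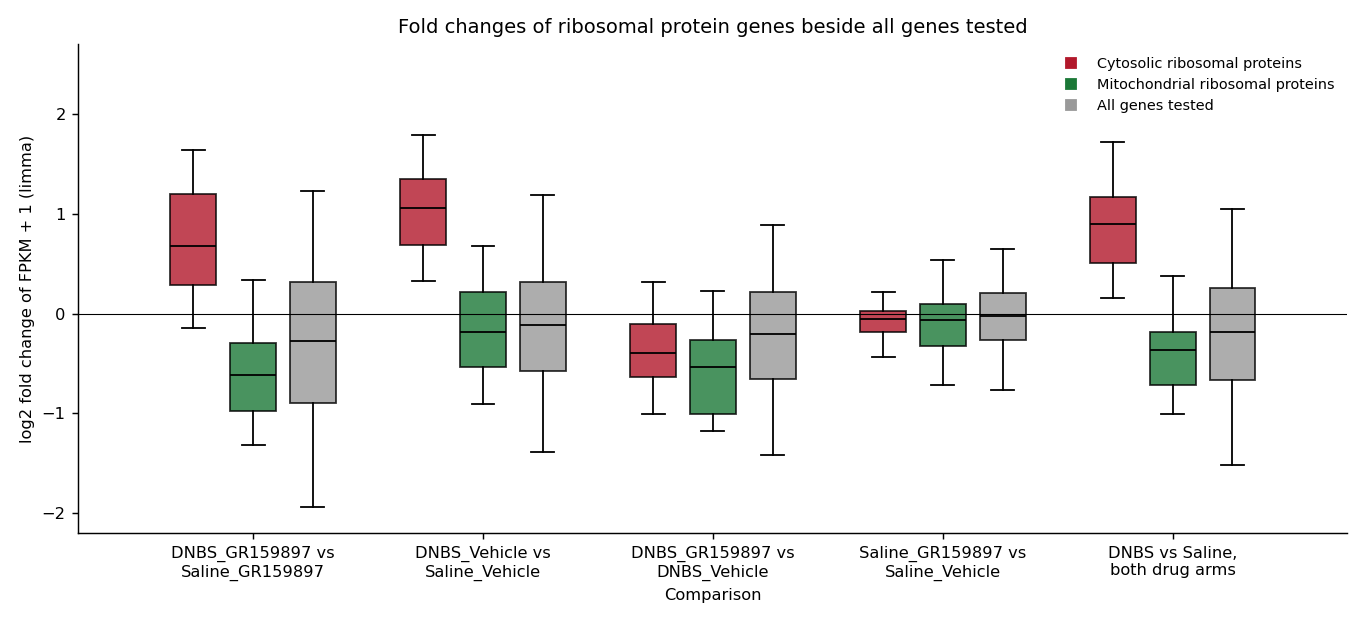
Log2 fold changes of the 73 cytosolic and 64 mitochondrial ribosomal protein genes and of all genes tested in 5 comparisons; boxes span the quartiles with the median as a line and whiskers leave out the lowest and the highest 5%. For DNBS the cytosolic genes' medians are 0.68, 1.05 and 0.90, and those of all genes -0.27, -0.11 and -0.18.

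Within the family the fold changes showed no clear order by transcript length or level. Over the 73 members, Spearman's rho between the averaged log2 fold change and transcript length was -0.06, and rho with mean FPKM was 0.02. Length is that of the annotated transcript with the longest coding sequence. Members were short, with a median length of 1076.5 bases against 3040.5 for all genes tested. Among transcripts of up to 700 bases the median log2 fold change was 0.96 for 16 members and 0.10 for 668 other genes; from 700 to 1500 bases it was 0.84 for 36 members and -0.31 for 1684 other genes. The 12 members with a TOP start had a median of 1.12 and the 41 tested members of the promoter table without one 0.78, with ranges of -0.59 to 1.85 and 0.02 to 2.09 that overlapped over most of their length.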

How the data were processed

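Ribosome-bound RNA was measured in 12 libraries. Per the labels, the SMART-seq v4 kit made complementary DNA from an input of 1 ng. The authors deposited FPKM for each locus, written to 2 decimals. HISAT2 2.0, StringTie 1.3, cutadapt 1.10 and FastQC 0.10.1 are named, per the submitters' processing notes, but not their roles. For the genome build: not given in the sources used here. Neither counts nor strand are held, so no counting interval can be given.

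Of 99547 loci, 24432 held an annotated transcript. Per symbol 1 locus was kept, that with the highest mean FPKM over the 12 libraries. Gfap had blank values in the 3 Saline_Vehicle libraries and was left out of comparisons that use them. Groups came from the labels. Values were analysed as log2(FPKM + 1), which understates changes of low genes, with limma 3.58.1 in R 4.3.3 (trended, robust prior), a coefficient per group, 8 residual degrees of freedom and two-sided tests, over 12778 genes that reached 1 FPKM in 3 or more libraries. The procedure was tested on simulated data. Identifiers were matched to GENCODE M21 (GRCm38), and starts to RefSeq (GRCm38.p6). Summaries used pandas 2.3.3 and numpy 2.4.6 (Python 3.11.15).

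The members, the lists and the tests were chosen with earlier results of these data known. Named members are Rpl22, those called in any comparison, the 5 highest and 5 lowest log2 fold changes per comparison, the 5 highest and 5 lowest mean levels, paralogs with an l suffix and their partners, members that fail the filter, and called genes of the lists; Rpl5 (for its level), Rps2 and Rplp0 were named after their values were seen. Some members that the rule would name are counted but not reported here. Alternatives changed the pseudocount, filter, scaling, block, sex term, weights, prior, samples and length correction.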

Additional observations from a re-analysis of the deposited data

Results flagged for a closer look

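Loci named as pseudogenes of ribosomal protein genes are not members and carried more signal with DNBS. Any that passed the filter are among all genes tested. Their 138 annotated loci summed to 1696, 2047 and 3240 FPKM in DNBS_GR159897 and 2156, 1950 and 3100 FPKM in DNBS_Vehicle, against 623, 1448 and 1149 FPKM in Saline_GR159897 libraries and 1164, 1156 and 858 FPKM in Saline_Vehicle. The lowest DNBS library, at 1696 FPKM, lay above the highest saline library.

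Loci that bear a member's name but hold no annotated transcript (32 loci, 28 names) summed to 21.4, 20.5 and 30.5 FPKM in DNBS_GR159897, above the 0.62 to 11.9 FPKM of the saline libraries, while DNBS_Vehicle held 2.43 to 9.68 FPKM. Annotated loci took only 22.6%, 56.4% and 64.5% of all FPKM in DNBS_GR159897. They took 53.8% to 84.0% in DNBS_Vehicle and 75.4% to 95.1% in saline libraries. The part of this larger unannotated share in the sums was not tested.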

How the results depend on the processing

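The number of called members in the averaged DNBS comparison was 16, and it moved to 8 with no filter, 34 and 33 when scaled to the annotated total and the upper quartile, 9 with a sex term, 43 with library weights and 39 with the length trend removed (the last chosen after seeing the data). In the vehicle arm 0 became 15 with weights, 6 with only the 2 groups compared and 1 with the length trend removed. With GR159897, 0 became 1 under the stricter filter, 2 scaled to the annotated total, 21 with weights, 3 with an ordinary prior and 3 with the length trend removed. The cause was not tested. Leaving out each library gave 4 to 39 called members in the averaged comparison, 0 to 6 in the vehicle arm and 0 to 1 with GR159897; it gave 0 for the drug in saline mice, the drug in DNBS mice and the interaction. In the averaged comparison none of the 16 called members turned in sign under any alternative run. Calls over all genes moved too, from 1226 to 442 with no filter, 1016 and 928 under the scalings, 800 with the sex term, 3009 with weights and 1131 with the length trend removed. In the vehicle arm they moved from 41 to 514 with weights, 110 with only the 2 groups compared and 62 with the length trend removed. With GR159897 they moved from 176 to 2154 with weights, 198 with an ordinary prior and 120 with the length trend removed. They fell there to 132 under the stricter filter and 91 scaled to the annotated total.

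Signs of single members turned, none of them called in the comparison concerned. With GR159897, Rpl23a moved from -0.18 to 0.27 under both scalings and 0.046 with weights; Rpl3 to 0.30 under both scalings and 0.43 with the length trend removed; Rps27l to 0.17 under both scalings and 0.38 with weights; Rps3 to 0.27 under both scalings, 0.039 with weights and 0.18 with the length trend removed. Averaged, Rpl3 moved to 0.17 and 0.26 under the scalings, 0.000267 with a sex term and 0.39 with the length trend removed. When single libraries were left out, the ranges that crossed 0 were as follows. Averaged over both arms they were -1.10 to 0.21 for Rpl15, -0.13 to 0.53 for Rpl23a, -0.23 to 0.073 for Rpl3 and -0.058 to 0.12 for Rpl4. In the vehicle arm they were -0.34 to 0.47 for Rpl15 and -0.078 to 0.20 for Rpl3. With GR159897 they were -2.27 to 0.36 for Rpl15, -0.74 to 0.57 for Rpl23a, -0.52 to 0.088 for Rpl3, -1.04 to 0.91 for Rps27l and -0.71 to 0.50 for Rps3. For the drug in saline mice they were -0.85 to 0.0099 for Rpl22, -1.07 to 0.20 for Rpl36al, -0.034 to 0.63 for Rpl39, 0 to 2.58 for Rpl6l, -0.087 to 0.69 for Rps28 and -1.46 to 0.56 for Rps4l. For the drug in DNBS mice they were -2.31 to 0.33 for Rpl15 and -0.034 to 1.72 for Rps4l, and for the interaction -2.34 to 0.30 for Rpl15 and -0.085 to 1.3 for Rpl36al.

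The labels give replicate numbers. Deviations of same-numbered libraries from their group means correlated at -0.09 to 0.20 over 18 pairs, 2 of them over 0.1, and those of other pairs at -0.27 to 0.22. With 3 libraries a group these correlations cannot show whether the numbers pair the samples, and the main fit used no pairing. With a replicate block 14 members were called in the averaged comparison and 0 in each other one, and of all genes 986, against 1226 without the block.

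The limits are the unknown depth, 3 libraries a group, unbalanced sex, a library (DNBS_GR159897 replicate 1) almost without glial markers, ethanol given only with DNBS, and sequence shared with pseudogenes.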
